A study of Homo sapiens with 6 samples.

Results

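NF-kB factors, their regulators and a set of their targets were followed in ovarian carcinoma cells with and without introduced BARD1. The genes are the 38 symbols of a fixed list of NF-kB subunits, inhibitors, kinases, receptors, adaptors, further brakes and targets, matched by gene name in a table of 58735 annotated genes. They occupied 39 rows of the table, because SOD2 was listed under 2 gene identifiers. RNA of 6 libraries was sequenced, 3 from control cells and 3 from a stable BARD1-expressing population, and all were labelled 48 h. BARD1 binds BRCA1 and forms a ubiquitin ligase with it. BARD1 had been introduced with a lentivirus carrying its reading frame, in a form seen as GFP-BARD1 under the microscope. The controls are described only as control, and the sources used here do not say whether they carried an empty vector or whether either population was a single clone. Any other difference between the 2 populations cannot be told apart from BARD1. All cells were grown in RPMI with serum and gentamicin. The labels also conflict on the material, since titles and growth protocol name cultured OVCAR8ip1 cells but SKOV3ip1 is given as the cell line and SKOV3ip1 tumors as the tissue.

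NF-kB is a family of dimeric transcription factors held in the cytoplasm by inhibitor proteins of the IkB family. In the canonical arm, receptors for tumour necrosis factor or interleukin-1 recruit adaptors that activate a kinase complex, which marks the inhibitors for degradation and frees dimers such as p50 with RELA. In the non-canonical arm, the kinase encoded by MAP3K14 accumulates when the adaptors TRAF2, TRAF3 and BIRC2 or BIRC3 no longer promote its destruction, and dimers of p52 with RELB form. Many of the inhibitors and brakes are themselves NF-kB targets, so the pathway limits its own activity. Most of these steps act on proteins, and transcript levels do not measure them.

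The counted reads per library ranged from 12744310 to 24349158, the 3 BARD1-expressing libraries including the 2 shallowest. Reads of BARD1 itself numbered 414, 392 and 420 in the controls and 623, 1072 and 688 in the BARD1-expressing libraries, a log2 fold change of 1.37 ± 0.081 (SE, edgeR adjusted p = 4.67e-12). Keratin genes KRT7, KRT8 and KRT18 and the carcinoma genes MSLN and PAX8 were read in every library, whereas MUC16, the gene of the CA125 antigen, had no read. Of 9 tested carcinoma markers, PAX8 was lower with BARD1 (log2 fold change -0.65, edgeR adjusted p = 1.19e-08), KRT7 (0.34), WT1 (1.43) and FOLR1 (0.56) were higher, and 5 did not pass. WT1 had only 10, 7 and 10 reads in the controls and 5, 43 and 11 with BARD1, and its groups overlapped. Levels are given in CPM (counts per 1e6 of the TMM-adjusted total), and per kilobase of gene length where genes are compared with each other. Positive log2 fold changes mean a higher level in BARD1-expressing cells. In bulk RNA, a change in the number of cells that express a gene and a change in RNA per cell cannot be told apart.

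Of the 38 genes, 35 had enough counts to be tested. In BARD1-expressing cells 14 were higher and 3 were lower, and 18 did not pass (quasi-likelihood test of edgeR, with p adjusted after Benjamini and Hochberg over all 15400 tested genes and called under 0.05). Over all tested genes 29.0% passed, 16.5% upwards and 12.4% downwards. The list was drawn up with earlier results of these data known, so its share is a description and no test. The median log2 fold change of the 35 genes was 0.20, against 0.00 over all tested genes (-0.0027 before rounding). Taken library by library against the control mean, the median of the 35 genes was 0.16, 0.26 and 0.19 in BARD1-expressing libraries 1, 2 and 3. The groups did not overlap at 23 of the 35 genes, 16 with the BARD1-expressing libraries above and 7 below, where 40.9% of all tested genes did not overlap (21.7% above and 19.2% below). Without BARD1-expressing library 3, 9 genes were higher rather than 14. By role, 3 of 5 subunits, 3 of 5 inhibitors, 6 of 11 targets, 1 of 2 receptors and 1 of 5 adaptors were higher. The genes that fell were 2 of 4 kinases and the other receptor. Coordinates here are those of the deposited table (GRCh38). Members that rose and kept their call in every alternative include TNF (ENSG00000232810, chr6:31575567-31578336), ICAM1 (ENSG00000090339, chr19:10270835-10286615), RELB (ENSG00000104856, chr19:45001430-45038198), NFKBIA (ENSG00000100906, chr14:35401511-35404749), TNFRSF9 (ENSG00000049249, chr1:7915894-7943165) and TRAF3 (ENSG00000131323, chr14:102777476-102911500). Those that fell and kept it were IKBKB (ENSG00000104365, chr8:42271302-42332653) and MAP3K14 (ENSG00000006062, chr17:45263119-45317145).

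**Figure D1:**
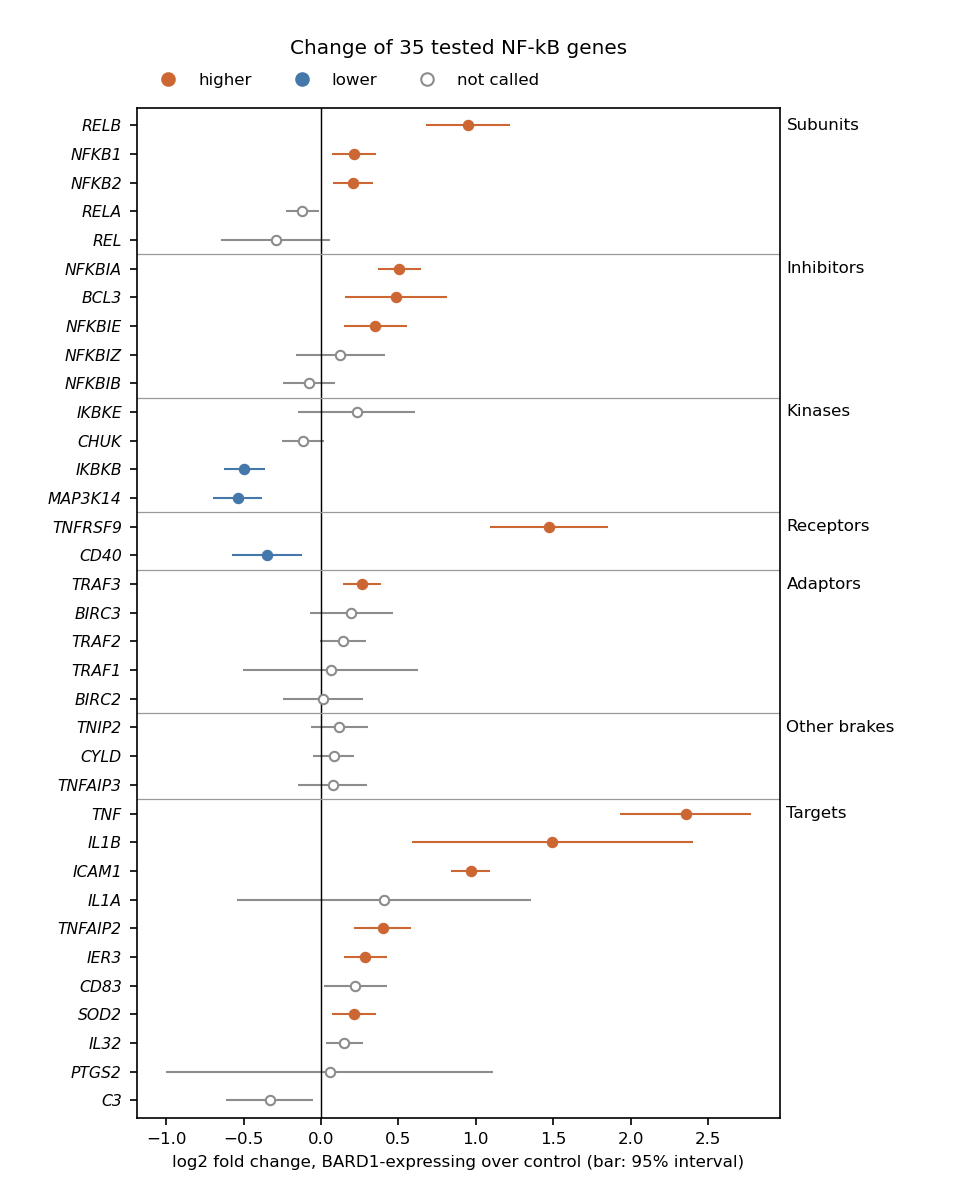
Log2 fold change of each of the 35 tested genes, grouped by role, with its 95% interval from the edgeR fit. Filled points passed at an adjusted p under 0.05, 14 to the right of 0 and 3 to the left. TNF lies farthest to the right and MAP3K14 farthest to the left.

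**Figure D2:**
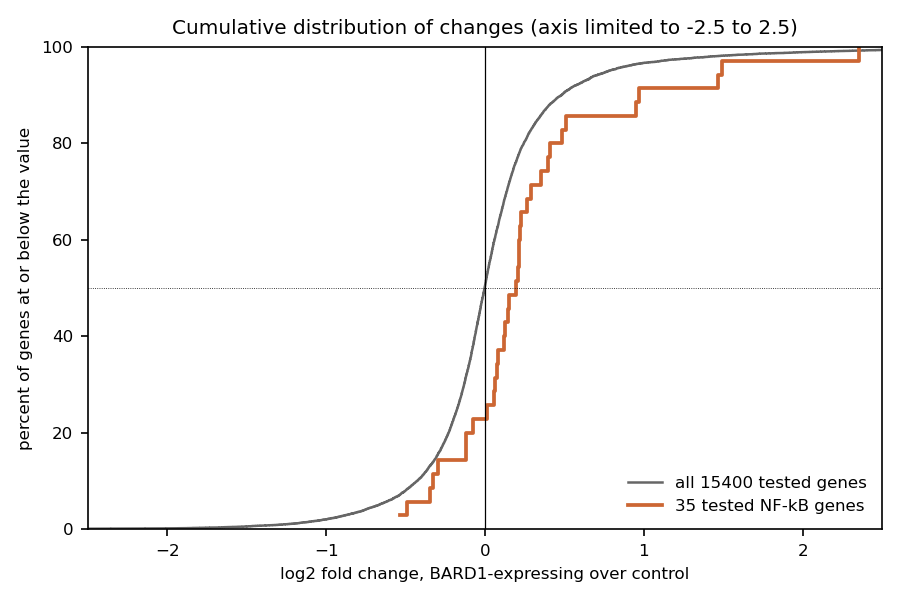
Cumulative distribution of log2 fold changes for all 15400 tested genes (grey) and for the 35 tested NF-kB genes (orange). The orange curve crosses 50% at 0.20 and the grey curve close to 0, and 27 of the 35 genes lie above 0.

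Promoters were read because several subunits and inhibitors rose together. The RefSeq table (GRCh38.p14) held 49 promoters for 31 of the 38 genes, and had no entry for C3, CCL2, CD40, IER3, IKBKB, NFKBIE and RELB. The 250 bases before each start site were searched on both strands for the 10-base kappaB consensus, the sequence that NF-kB dimers bind, with overlapping matches merged. The consensus was GGGRNNYYCC, where R is a purine, Y a pyrimidine and N any base. At least 1 promoter held a match in 15 of the 31 genes (48.4%), against 15.8% of 10736 tested genes in the same table, with 1.58 and 1.46 promoters per gene. Among genes that rose it was 5 of 11, and among the genes not called or not tested 10 of 19. The single promoter of MAP3K14, which fell, held none. The genes were listed as NF-kB factors and targets, so this share describes the list, and a match is a sequence and not a measured binding site.

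The matches of the 5 genes that rose are shown first, each strip written 5′ to 3′ on the strand of the gene with the match in capitals. Positions are counted back from the start site, whose preceding base is -1. In NFKB1 the match starts at -49, in NFKB2 at -107 and -78 of the second promoter and -21 of the third (which has another at -176, not printed), and in TNFRSF9 at -74. For NFKBIA and TRAF3, whose shown stretch overlapped no exon of GENCODE release 29, the last 120 bases before the start site are given, with the match at -81 and at -33.
NFKB1, chr4:102501300-102501329, plus strand: cgacgtcagtGGGAATTTCCagccaggaag
NFKB2, chr10:102394461-102394490, plus strand: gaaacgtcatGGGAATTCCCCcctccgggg
NFKB2, chr10:102394490-102394519, plus strand: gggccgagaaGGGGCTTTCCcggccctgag
NFKB2, chr10:102395674-102395703, plus strand: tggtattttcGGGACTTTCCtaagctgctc
TNFRSF9, chr1:7940894-7940923, minus strand: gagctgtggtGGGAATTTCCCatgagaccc
NFKBIA, chr14:35404750-35404869, minus strand: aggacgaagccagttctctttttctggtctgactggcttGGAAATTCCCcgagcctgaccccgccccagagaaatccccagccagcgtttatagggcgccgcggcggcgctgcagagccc
TRAF3, chr14:102777329-102777448, plus strand: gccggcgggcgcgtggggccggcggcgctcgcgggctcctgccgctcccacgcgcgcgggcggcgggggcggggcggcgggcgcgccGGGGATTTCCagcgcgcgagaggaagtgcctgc

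For comparison, 3 of the 10 other genes with a match in the window are shown, none of which passed the test. TNFAIP3 carries 2 matches in 1 strip, starting at -67 and -55, and REL and IL32 carry 1 each, at -47 and -99. Of the last 120 bases before the start site, 71 lay in annotated exons for TNFAIP3, 53 for REL and 106 for IL32. The promoters of BCL3, TNFAIP2, ICAM1, TNF, SOD2 and IL1B, which rose, held no match to the consensus in this window.
TNFAIP3, chr6:137867188-137867217, plus strand: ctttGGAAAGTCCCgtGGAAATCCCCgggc
REL, chr2:60881517-60881546, plus strand: cgtcagccgcGGGAAATTCCCctcccgcca
IL32, chr16:3065294-3065323, plus strand: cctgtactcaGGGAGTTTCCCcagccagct

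Among the 5 subunits, RELB, NFKB2 and NFKB1 rose, and RELA and REL did not pass. RELB, the partner of p52 in the non-canonical dimer, stood at 10.7, 10.03 and 7.75 CPM in the control libraries and at 14.6, 19.9 and 20.1 CPM in the BARD1-expressing libraries. Each BARD1-expressing library lay above each control, with the first the lowest of the 3. The log2 fold change of RELB was 0.95 ± 0.131 (SE, edgeR adjusted p = 8.13e-06), a fold of 1.93. NFKB2, the gene of the p100 precursor of p52, had 73.1, 74.1 and 76.0 CPM in the controls and 77.5, 89.4 and 89.8 CPM with BARD1. Here too the groups were apart, but the first BARD1-expressing library exceeded the highest control by little. NFKB1, the gene of p105 and p50, had 51.1, 58.9 and 59.97 CPM in the controls and 63.2, 67.6 and 66.3 CPM with BARD1, again without overlap. The log2 fold changes were 0.21 ± 0.063 for NFKB2 (edgeR adjusted p = 0.0158) and 0.22 ± 0.069 for NFKB1 (edgeR adjusted p = 0.0201). Neither call held on leaving out each library in turn, although the log2 fold change kept its sign. NFKB1, at 0.14 to 0.26, no longer passed when control 1 (adjusted p = 0.179), or when library 2 (0.0699) or 3 (0.0926) of the BARD1-expressing cells, was left out. NFKB2, at 0.17 to 0.26, no longer passed when control 1 (adjusted p = 0.0703) or 2 (0.0677), or library 2 (0.0725) or 3 (0.1345) of the BARD1-expressing cells, was left out.

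RELA, the transactivating subunit of the canonical dimer, had 161, 153 and 163 CPM in the controls and 139, 150 and 148 CPM with BARD1. The libraries with BARD1 were all below the controls, yet the difference did not pass (log2 fold change -0.12, 95% interval -0.23 to -0.01, edgeR adjusted p = 0.0946). REL, the gene of c-Rel, best known from lymphocytes, had 54 to 117 reads per library and a log2 fold change of -0.29 (95% interval -0.65 to 0.06). Per kilobase of gene length the order of the subunits in control cells was RELA (29.1 ± 0.98 CPM per kilobase), NFKB2 (16.6 ± 0.33), NFKB1 (9.05 ± 0.77), RELB (3.13 ± 0.51) and REL (0.354 ± 0.031; SD, n = 3 each). The level of REL per kilobase is uncertain, since 43.3% of its exonic bases are shared on the same strand with AC010733.2, which had no count, and how shared reads were counted is unknown. In BARD1-expressing cells the order was the same, with 26.7 ± 1.1, 19.1 ± 1.6, 10.5 ± 0.36, 6.01 ± 1.03 and 0.291 ± 0.032 CPM per kilobase, and neighbours in the order stayed apart by more than their SD in both groups.

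**Figure D3:**
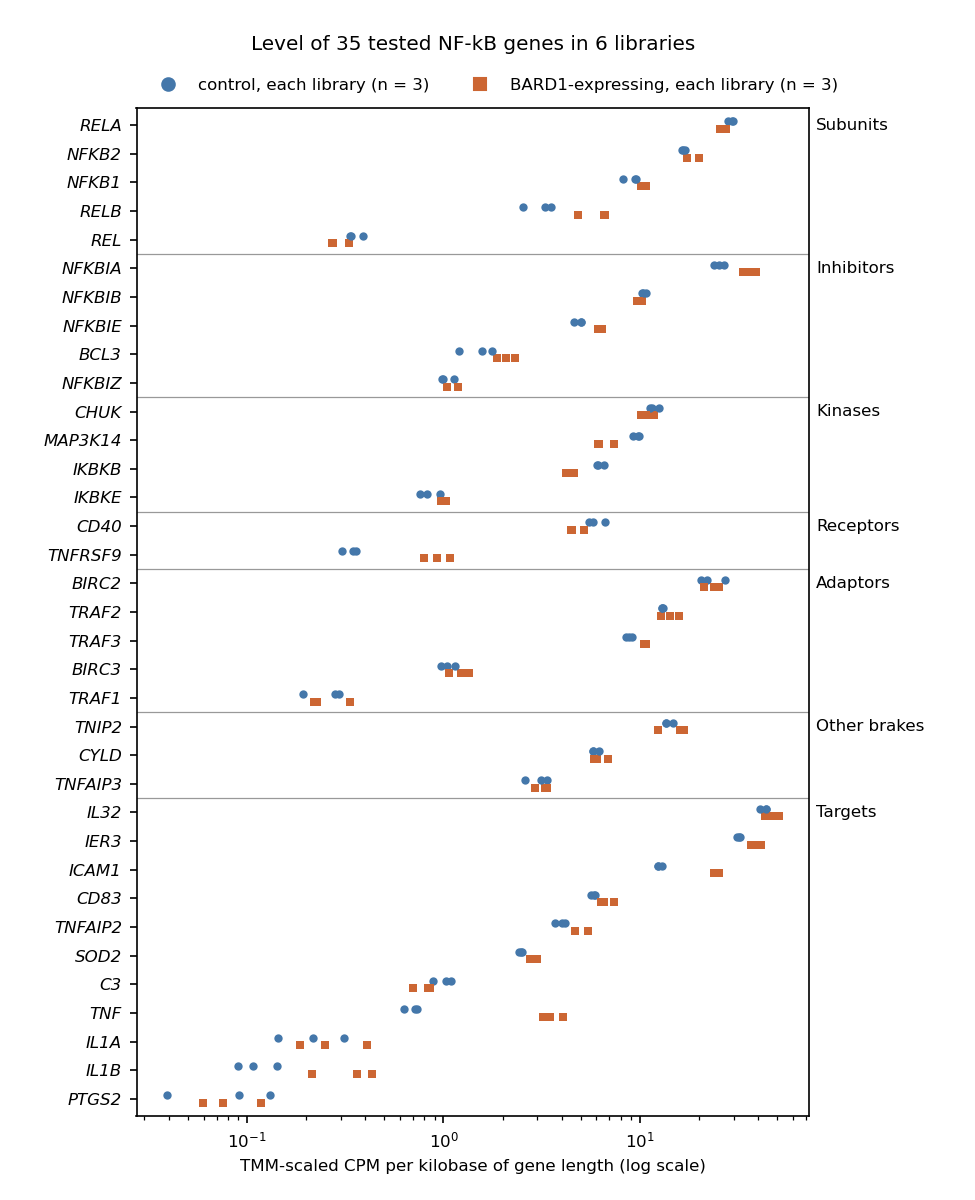
Level of the 35 tested genes in each of the 6 libraries, in TMM-scaled CPM per kilobase of gene length on a log axis. Circles are control and squares BARD1-expressing libraries. RELA, NFKBIA, BIRC2, IL32 and IER3 lie above 20 CPM per kilobase in the controls, and TNF has the largest ratio between the group means.

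Among 5 genes of the IkB family, grouped here as inhibitors by family and not by measured function, NFKBIA, NFKBIE and BCL3 rose. NFKBIB and NFKBIZ did not pass. NFKBIA encodes IkB-alpha, the inhibitor that is degraded and resynthesised in each round of signalling. It had 63.5, 60.05 and 56.3 CPM in the controls and 79.6, 84.0 and 92.0 CPM with BARD1. All 3 libraries with BARD1 lay above all controls, by a log2 fold change of 0.51 ± 0.067 (SE, edgeR adjusted p = 2.26e-06). NFKBIE, the gene of IkB-epsilon, had 11.9, 13.01 and 12.96 CPM in the controls and 16.0, 15.8 and 16.5 CPM with BARD1. Its libraries were tightly grouped, and NFKBIE differed by a log2 fold change of 0.35 ± 0.099 (edgeR adjusted p = 0.00904, and 0.05004 without control 1).

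BCL3 encodes an atypical, nuclear IkB protein that binds p50 and p52 dimers. It had 5.07, 5.69 and 3.88 CPM in the controls and 6.06, 7.52 and 6.77 CPM with BARD1, with no overlap but a wide spread in the controls. The log2 fold change of BCL3 was 0.49 ± 0.160 (edgeR adjusted p = 0.0245), and the call was lost with DESeq2 (adjusted p = 0.0550) and on leaving out control 3 (0.129), or library 2 (0.1355) or 3 (0.0631) of the BARD1-expressing cells. NFKBIB, the gene of IkB-beta, had a log2 fold change of -0.08 (95% interval -0.24 to 0.09), and NFKBIZ, the gene of another nuclear IkB protein, one of 0.13 (95% interval -0.16 to 0.42). In control cells NFKBIA was the most abundant of the inhibitors (25.3 CPM per kilobase), followed by NFKBIB (10.5), NFKBIE (4.89), BCL3 (1.51) and NFKBIZ (1.03).

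Of 4 kinases, 2 fell and none rose. IKBKB, the gene of the catalytic subunit IKK-beta that phosphorylates the inhibitors in the canonical arm, had 73.9, 69.2 and 68.4 CPM in the controls. With BARD1 it had 50.5, 52.1 and 47.4 CPM, so that each library lay below each control. IKBKB fell by 0.49 ± 0.065 on the log2 scale (SE, edgeR adjusted p = 2.41e-06). MAP3K14, the gene of the NF-kB inducing kinase NIK that starts the non-canonical arm, had 53.5, 56.9 and 56.3 CPM in the controls and 35.6, 42.9 and 35.6 CPM with BARD1. It fell by 0.54 ± 0.076 on the log2 scale (edgeR adjusted p = 6.76e-06), again with no overlap. The calls of IKBKB and MAP3K14 held in each of the 12 alternatives that were run. MAP3K14 shares 713 exonic bases with the antisense gene MAP3K14-AS1, which had 3 to 18 reads per library.

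CHUK, the gene of IKK-alpha, which serves both arms, had a log2 fold change of -0.12 (95% interval -0.25 to 0.02), and passed as lower without BARD1-expressing 1 (adjusted p = 0.0259). IKBKE, the gene of a kinase related to IKK that also acts in the interferon response, had 47 to 94 reads per library and a log2 fold change of 0.23 (95% interval -0.15 to 0.61). The kinase complex also needs the regulatory subunit encoded by IKBKG, which rose from 6.93, 6.13 and 6.60 CPM to 9.91, 9.13 and 9.22 CPM (log2 fold change 0.52 ± 0.126, edgeR adjusted p = 0.00292). IKBKG has a near-identical partial copy, so its count is uncertain, and its 53 neighbours within 5 Mb had a median log2 fold change of 0.13.

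Levels of related genes were also compared within each library, which does not depend on how libraries are scaled. The log2 ratio of RELB to RELA, in counts per kilobase, was -3.06, -3.08 and -3.55 in the controls and -2.40, -2.07 and -2.04 with BARD1, a difference of 1.06. RELB thus stood at 0.107 of RELA in control cells and 0.222 in BARD1-expressing cells. With BARD1 the log2 ratio of IKBKE to IKBKB was higher by 0.73, and that of NFKBIA to RELA by 0.63, from 0.868 to 1.34 on the linear scale. For these 3 of the 6 ratios the groups did not overlap, and an exact two-sided permutation test gave p = 0.1, the smallest that 3 against 3 libraries allow (0.2 adjusted over the 6 ratios). The ratios of NFKB2 to NFKB1 (difference -0.02, exact permutation p = 0.8), BIRC3 to BIRC2 (0.18, p = 0.3) and TRAF1 to TRAF2 (-0.11, p = 0.7) overlapped between the groups. The sign of the NFKB2 to NFKB1 difference turned without control 1 (0.04) or BARD1-expressing 1 (0.02), and that of TRAF1 to TRAF2 without control 2 (0.0005).

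**Figure D4:**
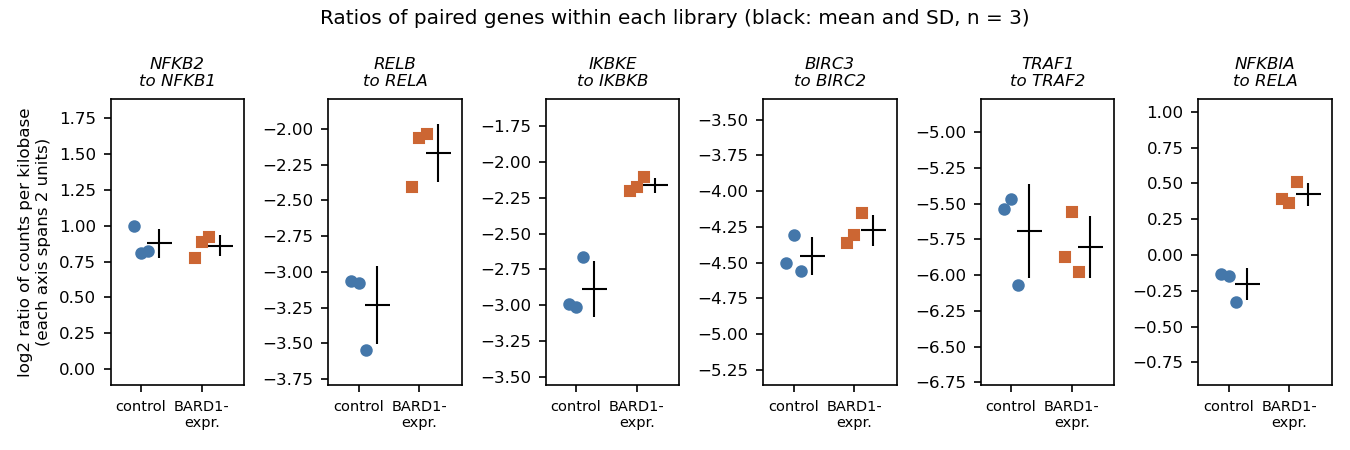
Log2 ratio of counts per kilobase for 6 gene pairs, computed within each library, with the mean and SD of each group in black. Each axis spans 2 log2 units. The groups are apart for RELB to RELA, IKBKE to IKBKB and NFKBIA to RELA and overlap for the other 3 pairs.

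The receptor pair split. TNFRSF9 (4-1BB, also CD137), a costimulatory receptor of the tumour necrosis factor family known from activated T cells, had 55, 50 and 42 reads in the controls and 64, 142 and 103 reads with BARD1. In CPM these were 2.27, 2.19 and 1.94 against 5.03, 5.86 and 6.83, with no overlap. The log2 fold change of TNFRSF9 was 1.47 ± 0.184 (SE, edgeR adjusted p = 1.11e-06). CD40, a receptor of the same family that signals through TRAF adaptors to both arms, had 13.9, 16.9 and 14.6 CPM in the controls and 13.1, 11.4 and 11.3 CPM with BARD1. The groups were apart by less than 1 CPM at their nearest libraries. CD40 fell by 0.35 ± 0.110 on the log2 scale (edgeR adjusted p = 0.0185), which did not pass when control 2 (adjusted p = 0.125), or library 2 (0.0711) or 3 (0.0782) of the BARD1-expressing cells, was left out.

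Of 5 adaptors, only TRAF3 passed. TRAF3, which brings NIK to the ubiquitin ligases that destroy it, had 75.7, 69.8 and 72.8 CPM in the controls and 86.5, 88.4 and 87.5 CPM with BARD1. The libraries with BARD1 differed from each other by less than 2 CPM and all exceeded the controls, by a log2 fold change of 0.27 ± 0.058 (SE, edgeR adjusted p = 0.00117). The other adaptor genes that did not pass were TRAF2 (log2 fold change 0.14, 95% interval -0.01 to 0.29), TRAF1 (0.06, -0.50 to 0.63), BIRC2 (0.01, -0.24 to 0.27) and BIRC3 (0.20, -0.07 to 0.46). BIRC2 and BIRC3, which encode the ubiquitin ligases cIAP1 and cIAP2, lie next to each other on chromosome 11 and differed in level, at 23.2 and 1.05 CPM per kilobase in control cells. TRAF2 passed as higher without BARD1-expressing 1 (adjusted p = 0.0208).

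None of the 3 further brakes passed. TNFAIP3, the gene of the ubiquitin-editing protein A20 and a known NF-kB target, had 17.0, 13.2 and 15.8 CPM in the controls and 14.8, 16.6 and 17.1 CPM with BARD1. The groups overlapped, and the log2 fold change was 0.08 (95% interval -0.15 to 0.30, edgeR adjusted p = 0.649), with a sign that turned without control 2 (-0.03). CYLD, a deubiquitinase, had a log2 fold change of 0.08 (95% interval -0.05 to 0.22), and TNIP2, the gene of an A20-binding protein, one of 0.12 (95% interval -0.07 to 0.30). TNIP2 passed as higher without BARD1-expressing 1 (adjusted p = 0.0180).

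Of 14 targets 11 were tested, 6 rose and none fell. TNF, the cytokine that both induces and is induced by NF-kB, had 29, 28 and 23 reads in the controls and 86, 142 and 81 reads with BARD1. In CPM these were 1.196, 1.23 and 1.06 against 6.76, 5.86 and 5.37, so the lowest library with BARD1 was far above the highest control. The log2 fold change of TNF was 2.35 ± 0.204 (SE, edgeR adjusted p = 2.62e-09). LTA, which lies beside TNF on chromosome 6 and was picked out after its values were seen, had 1, 2 and 1 reads in the controls and 18, 41 and 24 with BARD1. LTB, on the other side of TNF and known to pair with LTA in a membrane cytokine, had 0 to 3 reads in every library and was not tested. 

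ICAM1, the gene of an adhesion molecule for leukocytes, had 45.7, 46.1 and 47.9 CPM in the controls and 88.2, 93.5 and 91.04 CPM with BARD1. Both groups were narrow and far apart, with ICAM1 higher by 0.97 ± 0.061 on the log2 scale (edgeR adjusted p = 1.515e-11). TNFAIP2, a gene first found as induced by tumour necrosis factor, rose from 20.8, 20.1 and 18.6 to 23.4, 27.4 and 27.4 CPM (log2 fold change 0.40 ± 0.089, edgeR adjusted p = 0.00138). IER3, an early response gene that influences cell survival, rose from 43.8, 43.3 and 42.5 to 55.8, 49.9 and 52.9 CPM (log2 fold change 0.29 ± 0.068, edgeR adjusted p = 0.00234). In none of these genes did the groups overlap, and the calls of TNF, ICAM1, TNFAIP2 and IER3 held in each of the 12 alternatives. Antisense genes that overlap exons of ICAM1 and IER3 had at most 2 reads in any library.

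SOD2 and IL1B passed less firmly. SOD2, the gene of the mitochondrial superoxide dismutase, had 40.7, 39.8 and 41.4 CPM in the controls and 49.3, 45.3 and 46.9 CPM with BARD1 (a log2 fold change of 0.21 ± 0.068, edgeR adjusted p = 0.0211). Although its groups did not overlap, the call was lost without a filter on low counts (adjusted p = 0.0505) and on leaving out control 1 (0.0653) or 2 (0.101), or library 1 (0.0636) or 3 (0.0762) of the BARD1-expressing cells. SOD2 shares 298 exonic bases (1.81%) with WTAP on the opposite strand, which had 1154 to 2060 reads, and without known strand use such reads cannot be told apart. Its second row had 2 reads in all, in 1 library. IL1B, the gene of interleukin-1 beta, had 8, 10 and 6 reads in the controls and 17, 16 and 17 reads with BARD1, or 0.330, 0.438 and 0.277 against 1.34, 0.661 and 1.13 CPM. IL1B differed by a log2 fold change of 1.49 ± 0.439 (edgeR adjusted p = 0.0112), and it did not pass when library 1 (adjusted p = 0.0504) or 3 (0.0514) of the BARD1-expressing cells was left out. Its neighbour IL1A, for interleukin-1 alpha, had 5 to 21 reads per library and overlapped between groups (log2 fold change 0.41, 95% interval -0.54 to 1.35).

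The other targets did not pass or could not be tested. IL32, the gene of a cytokine and the most abundant target per length (42.7 CPM per kilobase in controls), had a log2 fold change of 0.15 (95% interval 0.03 to 0.27, edgeR adjusted p = 0.0537) and passed as higher without BARD1-expressing 1 (adjusted p = 0.00289). CD83, a surface protein of activated dendritic cells, had 14.9, 14.6 and 14.1 CPM in the controls and 16.6, 15.9 and 18.5 CPM with BARD1, with no overlap (log2 fold change 0.22, 95% interval 0.02 to 0.43, edgeR adjusted p = 0.0938). C3, the gene of complement component 3, had a log2 fold change of -0.33 (95% interval -0.61 to -0.05, edgeR adjusted p = 0.0733) and passed as lower without control 2 (adjusted p = 0.0477). PTGS2, the gene of cyclooxygenase-2, had 4 to 15 reads per library and an interval from -1.0 to 1.1, too wide to give a direction. The chemokine gene CCL20 had 3 to 10 reads per library and was not tested. CCL2, another chemokine gene and a widely used NF-kB readout, had no read in any library, which allows up to 0.123 to 0.235 CPM at 3 counts.

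TNF, IL1B, CD83, LTB and TNFRSF9 are best known from immune cells, and markers of such cells were near absent. Of 16 immune markers 9 had no read in any library, among them CD3E, MS4A1, CD163 and NKG7, and PTPRC, the gene of the pan-leukocyte antigen CD45, had a single read. The summed level of the list was 0.788 to 1.11 CPM in the controls and 1.42 to 2.32 CPM with BARD1. ICAM1 is also made by endothelium, and of 8 endothelial markers 2 were tested and both were higher (KDR and TIE1). TIE1 had 27, 29 and 30 reads in the controls and 46, 151 and 56 with BARD1, without overlap in CPM (log2 fold change 1.89, edgeR adjusted p = 1.73e-06). KDR had only 5 to 8 reads per control library and 11 to 16 with BARD1. PECAM1 had 1 to 8 reads and CDH5 0 or 1. The sum of the endothelial list was 1.98 to 2.40 CPM in the controls and 5.27 to 7.72 CPM with BARD1. Of 6 tested rows of fibroblast and pericyte markers, PDGFRB (log2 fold change 1.51, edgeR adjusted p = 2.24e-09), LUM (1.98) and ACTA2 (1.36) were higher and COL1A1 (-0.32) was lower. LUM had only 3 to 7 reads per control library and 10 to 15 with BARD1, and ACTA2 had 3 to 11 and 8 to 23. The summed level of that list was 1020 to 1080 CPM in the controls and 841 to 889 CPM with BARD1, nearly all of it COL1A1, while DCN had no read and COL1A2 and COL3A1 had at most 2. The part of these marker changes in the results was not tested.

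The genes around the members were described from 4 lists of 73 other pathway genes, of which 62 were tested, 22 were higher and 5 lower. Their median log2 fold change was 0.10. Of 10 tested receptors 4 rose and 1 fell, of 24 adaptors and kinases 5 rose and 3 fell, of 12 brakes 2 rose and none fell, and of 16 targets 11 rose and 1 fell. The shares called were 50%, 33.3%, 16.7% and 75.0%, against 29.0% of all tested genes, so that of the adaptors was near the background and that of the brakes below it. The medians of the 4 lists were 0.23, -0.03, 0.02 and 0.58. The counts of called genes include some in shifted regions. The receptor that fell, TNFRSF11A (log2 fold change -0.81), lies on chromosome 18, and its 23 neighbours within 5 Mb had a median of -1.03. Among the targets that rose, IRF1 (0.62) lies on chromosome 5, and its 39 neighbours had a median of 0.54. The part of the regions in these calls was not tested.

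Among receptors, the interleukin-1 receptor gene IL1R1 rose from 2.10, 1.66 and 1.98 CPM to 6.06, 5.82 and 7.37 CPM (log2 fold change 1.73 ± 0.185, edgeR adjusted p = 9.62e-08). The death receptor gene TNFRSF10B (0.45 ± 0.062) and the gene of the main tumour necrosis factor receptor, TNFRSF1A (0.26 ± 0.057), rose by less. Among adaptors, IRAK2, which acts below interleukin-1 and Toll-like receptors, rose from 1.44, 1.27 and 1.15 CPM to 4.17, 3.96 and 3.32 CPM (log2 fold change 1.56 ± 0.227, edgeR adjusted p = 9.29e-06). RBCK1, a subunit of the linear ubiquitin ligase, rose by less (0.41 ± 0.079). IRAK1 (-0.22 ± 0.052, edgeR adjusted p = 0.00239) and TAB2 (-0.17 ± 0.062, edgeR adjusted p = 0.0413) fell. MALT1, the paracaspase of the CARD and BCL10 complex, fell from 33.0, 34.5 and 36.1 CPM to 14.2, 16.0 and 14.4 CPM (log2 fold change -1.20 ± 0.086, edgeR adjusted p = 1.16e-10). MALT1 lies on chromosome 18, where 170 of 228 tested genes were lower and where its 25 neighbours within 5 Mb had a median of -0.99, so its own change and that of its region cannot be told apart.

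Among the brakes TNIP1, the gene of another A20-binding protein, rose from 91.3, 87.8 and 84.3 CPM to 173, 175 and 175 CPM (log2 fold change 0.99 ± 0.053, edgeR adjusted p = 8.66e-13). It lies on chromosome 5, and its 41 neighbours within 5 Mb had a median of 0.40. The part of the region in the change of TNIP1 was not tested. PDLIM2, which promotes the degradation of RELA, had a log2 fold change of 0.32 ± 0.098 (edgeR adjusted p = 0.0156), a call lost without control 2 (adjusted p = 0.0507), control 3 (0.0595) or BARD1-expressing 2 (0.157), and NLRC5 did not pass (-0.28 ± 0.106, edgeR adjusted p = 0.0514). Among the targets CXCL8 was at 1.196, 0.964 and 0.923 CPM in the controls and 10.5, 10.98 and 10.6 CPM with BARD1, and IL6 at 3.92, 4.99 and 3.04 against 11.4, 9.91 and 10.6 CPM. PLAU, the urokinase gene, was at 31.6, 35.3 and 31.1 against 73.7, 74.9 and 73.8 CPM. The target that fell, GADD45B, was at 67.2, 64.0 and 59.0 CPM in the controls and 43.3, 46.1 and 47.4 CPM with BARD1. Its log2 fold change was -0.47 ± 0.069 (edgeR adjusted p = 9.30e-06), and its 133 neighbours within 5 Mb had a median of 0.04. The 35 tested members themselves lay in regions with little shift, the median of their neighbours ranging from -0.09 to 0.09.

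**Figure D5:**
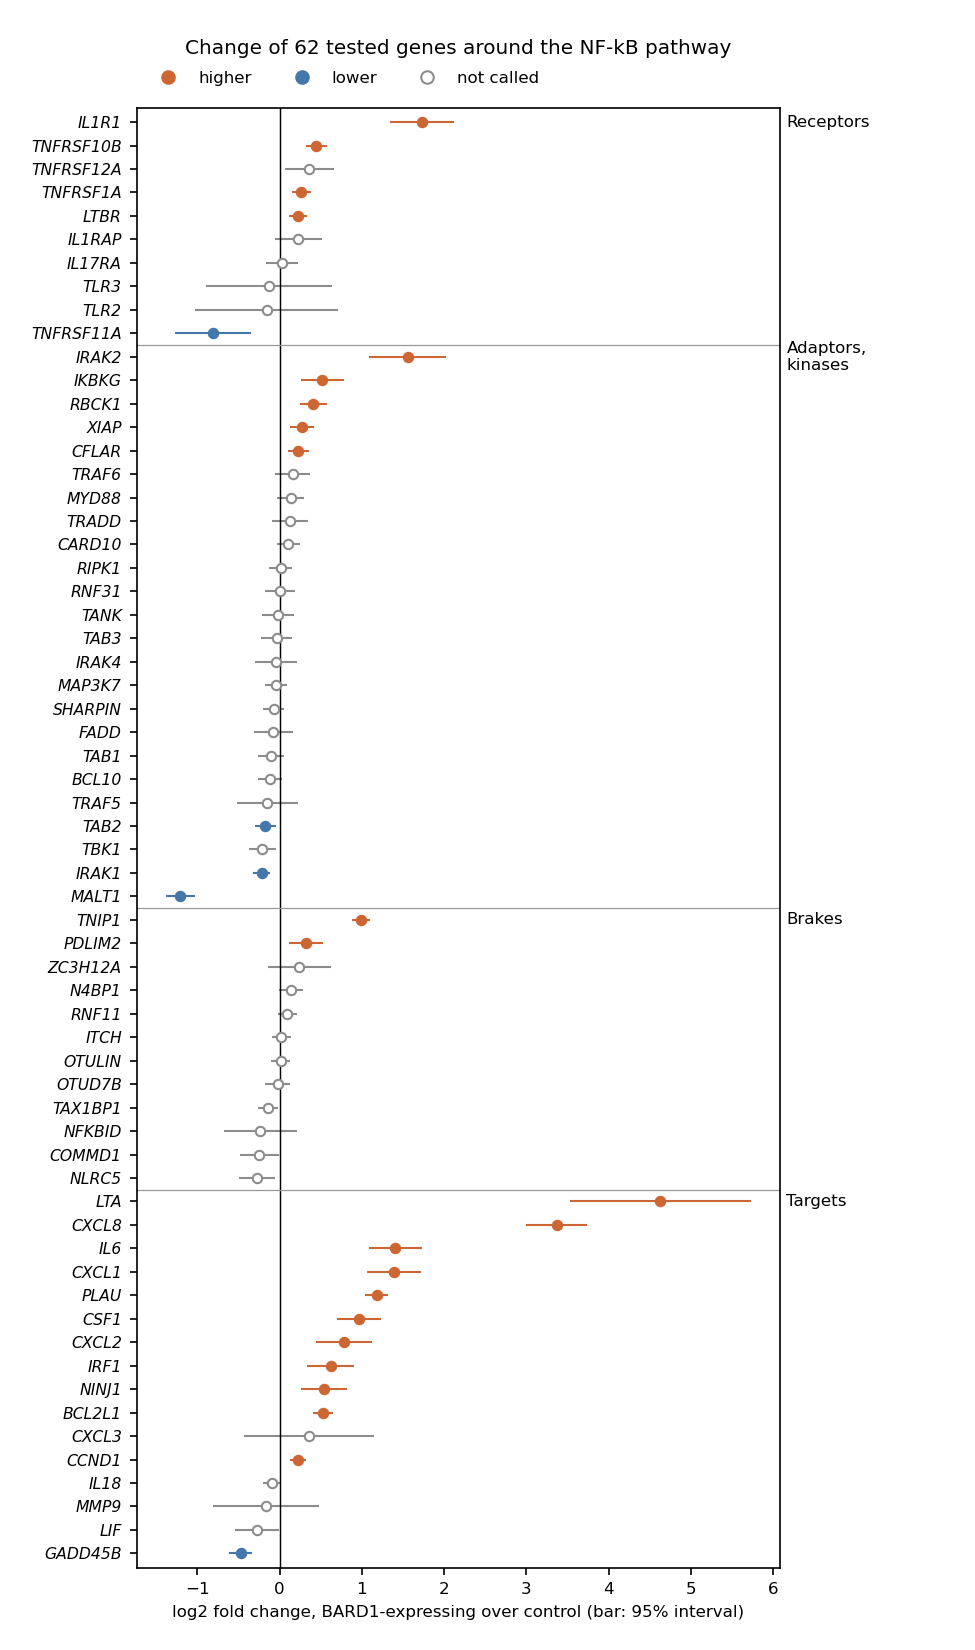
Log2 fold change of the 62 tested genes around the members, grouped by role, with 95% intervals from the edgeR fit. Filled points passed at an adjusted p under 0.05, 22 higher and 5 lower. CXCL8 and LTA lie farthest to the right, the fit of LTA resting on 4 control reads, and MALT1 farthest to the left.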

How the data were processed

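RNA of 3 control and 3 BARD1-expressing libraries was selected with poly(T) beads, per the labels' protocols. The authors deposited raw counts per gene as 1 table, and the submitters' processing notes name HISAT2 2.0.5, featureCounts 1.5.0-p3, DESeq2 1.20.0 and GRCh38, with no options. The sources used here do not say whether counting used strand, so reads of antisense genes cannot be told apart. The table's other measured column is gene length in bases, per the file headers, which equals the summed exons of GENCODE release 29 in all 39 member rows.

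Counts were tested with edgeR 4.0.16 in R 4.3.3 (filterByExpr, TMM, robust quasi-likelihood test, group alone, 4 residual degrees of freedom), adjusted over all 15400 tested genes. Alternatives were RLE and upper-quartile scaling, DESeq2 1.42.0, limma-voom (limma 3.58.1), no filter, a replicate block, and each library left out. The procedure was also run on counts simulated from its own fitted dispersions, with far fewer changed genes than were called here. That run is no test of the calls in these data. Replicates differed by more than sampling noise (chi-square per degree of freedom 3.41 to 8.11). The titles call them biological replicates but do not say whether cultures or transductions were separate, and p-values cover only the spread between libraries. Floors cover counting error only.

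Members, lists and roles were chosen with earlier results of these data known. All members are named. From each pathway list the 3 genes with the smallest p are named, with CXCL8, IL6 and IKBKG. LTA, IRF1 and the lower genes TNFRSF11A, IRAK1, TAB2 and GADD45B were added after their values were seen, as were the promoter strips.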

Additional observations from a re-analysis of the deposited data

How the results depend on the processing

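Of 17 called members, 10 kept their call and direction in all 12 alternatives (RELB, NFKBIA, IKBKB, MAP3K14, TNFRSF9, TRAF3, TNFAIP2, ICAM1, TNF and IER3). With 1 library left out, 9 to 15 members were higher and 2 to 4 lower. With the replicate block 14 were higher and 3 lower. After the mean of each group was subtracted, the correlations of same-numbered libraries were -0.112, -0.0315 and -0.00885 and none correlated best with its own number. With 3 libraries per group, these values cannot show whether libraries of the same number shared a batch. The blocked fit gave 2296 genes higher and 1694 lower over all genes, against 2545 and 1915 without the block. Members that did not pass and changed sign were BIRC2 (-0.0047 with upper-quartile scaling, -0.0009 without a filter, -0.0718 to 0.1369 with 1 library left out), PTGS2 (-0.0048 with DESeq2, -0.003 with the block, -0.33 to 0.46 with 1 library left out), TRAF1 (-0.20 to 0.16), TNFAIP3 (-0.0267 to 0.15) and IL1A (-0.0399 to 0.71). The causes were not tested. With 1 library left out, the difference between groups in the log2 ratio of NFKB2 to NFKB1 ranged from -0.0492 to 0.0432 and that of TRAF1 to TRAF2 from -0.30 to 0.0005. With upper-quartile scaling 8 other pathway genes were lower rather than 5. With A or T required at the sixth base of the consensus, 8.17% of tested genes held a match, and the members' share was the same. Counts under about 20 per library limit IL1B, IL1A, PTGS2, CCL20 and LTB, and the markers KDR, LUM and ACTA2. The same holds for WT1 outside BARD1-expressing library 2.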
